A study of Rattus norvegicus with 6 samples.

Results

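The enzymes that split glucose to pyruvate (glycolysis), those that pass pyruvate on to lactate or to acetyl-CoA, and those of the tricarboxylic acid (TCA) cycle were examined in rat spinal cord 35 days after a contusion, a blunt blow to the cord. From a list of 38 genes, the members were all probe sets whose annotation names exactly 1 of these genes, and 30 genes were found this way. Of these, 29 were among the 4736 genes singly named outside the array's control spots, and Gapdh was on control spots alone. Total RNA from about thoracic segment 8 had been hybridised to 1 array per sample, in 3 samples from the injury epicenter at day 35 (contused) and 3 from the same level of uninjured animals (uninjured). Strain, sex and age are not given in the sources used here, and the uninjured samples are named neither as sham operated nor with a day, so surgery, elapsed time and contusion cannot be told apart. The labels do not tie arrays to separate animals. The p-values therefore rest on array-to-array spread, some of which may be technical.

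Glycolysis runs in the cytosol and yields pyruvate, which lactate dehydrogenase exchanges with lactate and which the pyruvate dehydrogenase complex commits to the mitochondrial TCA cycle. Many of these steps have several isoforms made in different cells. Among them are the brain-type aldolase Aldoc, which astrocytes make, the muscle enzymes Eno3 and Pgam2, and the liver and red cell pyruvate kinase Pklr. Neurons depend heavily on mitochondrial oxidation, whereas astrocytes and oligodendrocytes are known to release lactate.

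In the contused cord more of these enzymes were lower than higher, while most did not pass the test. Of 45 member probe sets tested, 16 (35.6%) fell and 1 (2.22%) rose, where 9.61% of all 6698 probe sets tested fell and 7.79% rose (limma, adjusted p under 0.05 over all probe sets). By gene, taking the probe set with the highest mean, 10 of 27 tested genes fell, 0 rose and 17 did not pass, against 9.91% and 7.03% of all 3954 genes. The 10 were Pfkm, Pfkp, Aldoa, Pgk1, Pgam1, Pdha1, Pdhb, Idh3g, Mdh1 and Mdh2, with falls of 1.38-fold to 1.63-fold. The median log2 change over the 27 genes was -0.28, and it was -0.02 over all genes. In 27 of the 45 probe sets (60%) every contused array lay below every uninjured array, and in 4 (8.89%) every contused array lay above. Over all probe sets tested those shares were 18.2% and 16.6%. The count of fallen genes depended on single arrays. Without contused array 2 it was 6 of 25 tested members, beside 275 of all 3882 genes. Without uninjured array 2 it was 4 of 27, beside 260 of 3922. Without uninjured array 3 it was 2 of 27, beside 222 of 3905, and there the share among members was near that of all genes.

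**Figure D1:**
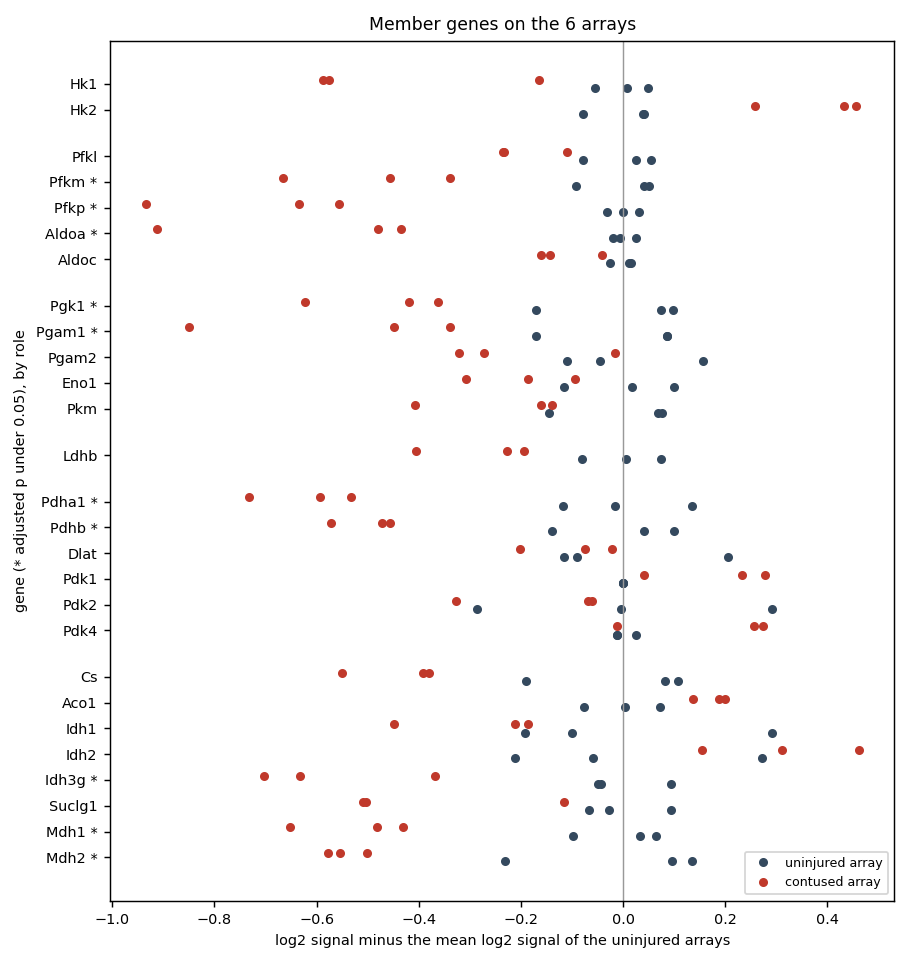
Log2 signal of each of the 27 tested member genes (rows, ordered by role) on each array, minus the gene's mean over the uninjured arrays; dark points are uninjured arrays, red points contused arrays, and a star marks an adjusted p under 0.05. The red points of the 10 starred genes all lie to the left of the dark points, while Hk2, Aco1 and Pdk1 have all red points to the right.

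Markers of several cell types moved in the same samples, and their part in these results was not tested. Their counts are to be read against the 9.91% of all genes that fell and the 7.03% that rose. Of 15 tested neuron markers 13 fell, among them Vsnl1, Thy1 and Nefh, and 0 rose (median log2 change -1.15), and the summed signal of the 16 neuron markers on the array was 8977 to 9836 on contused and 17816 to 20858 on uninjured arrays. For oligodendrocyte and myelin markers 5 of 9 fell (summed signal 14037 to 15130 against 17153 to 18240). Of 11 microglia and macrophage markers 10 rose, Lgals3, Fcgr2b and C1qb among them (9023 to 9505 against 3272 to 3751), and of 9 fibroblast and meninges markers 4 rose (12012 to 14366 against 5469 to 9938). Fcgr2b was above the floor of 61.6, to which dimmer signals were set, on the contused arrays alone. Astrocyte markers rose in 2 of 10 cases and fell in 0, with sums of 10326 to 11347 against 9882 to 10675. No Schwann cell marker of 6 and no endothelium marker of 5 passed in limma, yet their sums separated the groups. Schwann cell markers summed to 5034 to 6006 on contused and 4417 to 4617 on uninjured arrays, and endothelium markers to 575 to 618 and 664 to 727. Such sums weigh bright genes most. The 2 brightest Schwann cell markers were Pmp22 (mean 2028 contused, 1535 uninjured) and Ngfr (1428 and 1112, with overlapping groups). In tissue RNA of this kind, fewer cells of a type and less RNA per cell cannot be told apart. Median signals of the arrays ran from 122 to 127, and the arrays correlated at 0.957 to 0.977 within groups and 0.91 to 0.932 between them (Pearson's r across tested probe sets of log2 signals).

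Promoters are shown for the members that moved in opposite directions with the firmest calls, Hk2, which rose on 1 probe set, and Pgam1, which fell on all 3. They are the 250 bases before the annotated start in RefSeq's GRCr8 table, which held 26 of the 27 tested members. Capitals mark ACGTG, 1 form of the core read by hypoxia-inducible factors and also within the E-box CACGTG, searched on both strands. Other forms of that core were neither marked nor counted.
Hk2, chr4:116841276-116841525, minus strand: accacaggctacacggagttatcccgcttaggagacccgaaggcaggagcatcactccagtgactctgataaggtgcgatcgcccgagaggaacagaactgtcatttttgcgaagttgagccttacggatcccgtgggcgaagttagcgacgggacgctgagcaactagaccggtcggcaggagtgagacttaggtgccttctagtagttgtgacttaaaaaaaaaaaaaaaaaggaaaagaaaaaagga
Pgam1, chr1:250672902-250673151, plus strand: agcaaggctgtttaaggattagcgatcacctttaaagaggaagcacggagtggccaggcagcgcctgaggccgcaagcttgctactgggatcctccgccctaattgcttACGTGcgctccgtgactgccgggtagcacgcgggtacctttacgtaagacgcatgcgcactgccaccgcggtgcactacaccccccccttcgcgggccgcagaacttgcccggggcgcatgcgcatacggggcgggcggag
The letters occur once in the Pgam1 window, starting 141 bases before the start site, and not in the Hk2 window. They occur in 7 of the 26 member promoters (26.9%), in 4 of the 9 among fallen genes with a promoter, in 21.8% of the promoters of genes tested and in 16.9% of all 27457 promoters. A match describes the letters alone.

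Hexokinase makes glucose 6-phosphate and so holds glucose in the cell; Hk1 is its main form in brain and Hk2 the insulin-responsive form of muscle and fat. Hk2 held the only rise called among the member probe sets tested. Its probe set D26393exon_s_at read 119, 156 and 139 on the contused and 73.7, 68.9 and 65.8 on the uninjured arrays. All contused values were higher, by 1.98-fold (log2 change 0.99, SE 0.14, adjusted p = 0.000891 in limma), and this call held in all 14 alternatives that tested it. The uninjured values lie close to the floor of 61.6 below which signals were levelled, and with the floor at the pooled median the probe set was not tested. The second and brighter probe set for Hk2, M68971_at, read 329, 292 and 334 against 251, 231 and 251. It too separated the groups, but its log2 change of 0.38 (SE 0.14) did not pass (adjusted p = 0.0798 in limma). With both probe sets averaged, Hk2 had a log2 change of 0.68 and an adjusted p of 0.00289 in limma.

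The Hk1 probe sets disagreed in sign. On rc_AI012593_at the contused arrays read 529, 524 and 703 and the uninjured arrays 759, 815 and 792, a log2 change of -0.44 (SE 0.14, adjusted p = 0.0606 in limma). On U27319exon_at the groups overlapped, at 606, 690 and 528 against 532, 487 and 599 (log2 change 0.17, SE 0.15). Without contused array 3 the first of these passed, with an adjusted p of 0.00962 in limma. Hk1 is also read by 3 control spots that the array design places along its transcript, and there the groups overlapped as well. Their log2 changes were 0.06 (SE 0.07, from the spread of the arrays) at the 5′ part, 0.02 (SE 0.10) in the middle and -0.17 (SE 0.21) at the 3′ part.

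Phosphofructokinase, the committing step of glycolysis, is a tetramer built from muscle (Pfkm), liver (Pfkl) and platelet (Pfkp) type subunits, and brain holds all of them. Pfkp fell 1.63-fold, from 865, 846 and 884 on the uninjured arrays to 453, 557 and 588 on the contused arrays (L25387_g_at; log2 change -0.71, SE 0.14, adjusted p = 0.00518 in limma). The groups were clearly apart and this call held in all 15 alternatives. Its companion probe set from the same source sequence, L25387_at, gave 211, 299 and 423 against 524, 420 and 486, where contused array 3 reached into the uninjured range (log2 change -0.67, SE 0.22, adjusted p = 0.0668 in limma). Without that array it passed (0.00688). Pfkm fell on both of its probe sets. The brighter, U25651_at, read 1020, 941 and 813 against 1211, 1337 and 1327 (log2 change -0.49, SE 0.13, adjusted p = 0.0229 in limma). D21869_s_at read 132, 190 and 190 against 255, 248 and 241 (log2 change -0.56, SE 0.17, adjusted p = 0.0459 in limma). The first call was lost without contused array 2 or uninjured array 2 or 3, under quantile normalization and with no filter (adjusted p up to 0.101 in limma). The second was lost with no filter and without any 1 array except contused array 3 (up to 0.132). Pfkl had 209, 209 and 227 against 250, 255 and 232; the contused arrays were all lower, and the log2 change of -0.19 (SE 0.13) did not pass (adjusted p = 0.376 in limma).

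Aldolase cleaves the doubly phosphorylated sugar into triose phosphates. Aldoa, the form of muscle and most tissues, fell 1.53-fold, from 1960, 2024 and 1980 to 1425, 1471 and 1055 (log2 change -0.61, SE 0.14, adjusted p = 0.0127 in limma). Every contused array was well below the narrow uninjured range, with contused array 3 the lowest. The call was lost without uninjured array 2 or 3 (adjusted p of up to 0.0517 in limma) and with no filter on dim probe sets (0.0752). Aldoc, which within the spinal cord is mainly an astrocyte product, read 3820, 3556 and 3515 on the contused and 3858, 3962 and 3969 on the uninjured arrays. All contused values were lower, by a small margin, with a log2 change of -0.12 (SE 0.09, adjusted p = 0.458 in limma). Its second probe set gave -0.15 (SE 0.11).

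Gapdh, which oxidises the triose phosphate, is singly named here only on control spots, and these stayed out of the fit. At the 3′ part of its transcript the signals were 3353, 3486 and 3101 against 3585, 3598 and 3853, a log2 change of -0.15 (SE 0.06; exact two-sided permutation p = 0.1, the smallest that 3 against 3 arrays allow). The middle and 5′ parts had log2 changes of -0.11 (SE 0.11) and -0.09 (SE 0.07), with overlapping groups. The ratio of 3′ to 5′ signal, which climbs as RNA degrades, lay between 1.08 and 1.12 after contusion and between 1.13 and 1.17 in uninjured cord. From the Hk1 control spots it came to 1.25 to 1.66 and 1.55 to 1.85. The part of these ratios in the members' changes was not tested.

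Pgk1, which yields the first ATP of the pathway, fell on 2 of its 3 probe sets. The brightest, M31788_g_at, read 1052, 878 and 1010 against 1201, 1422 and 1445 (log2 change -0.47, SE 0.13, adjusted p = 0.0302 in limma). Without contused array 2, uninjured array 2 or uninjured array 3, under quantile normalization or with no filter on dim probe sets it did not pass (up to 0.138). The probe set rc_AA892797_at had the largest fall among the members, 1.78-fold, from 1217, 1308 and 1487 to 703, 627 and 954 (log2 change -0.83, SE 0.16, adjusted p = 0.00623 in limma). Its groups stood well apart, and the call held with any 1 array left out, though not without the filter (0.066). M31788_at was lower on every contused array without passing (log2 change -0.39, SE 0.14, adjusted p = 0.087 in limma), and passed without contused array 3 (0.0321).

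Pgam1, the phosphoglycerate mutase of brain and most tissues, was the member with the most consistent calls, since all 3 of its probe sets fell. On rc_AI169417_s_at the signals were 809, 757 and 878 against 1232, 1428 and 1444, a 1.68-fold fall (log2 change -0.75, SE 0.12, adjusted p = 0.00227 in limma) that held in all 15 alternatives. S63233_g_at gave -0.76 (SE 0.16) and the brighter S63233_at -0.55 (SE 0.15). These last probe sets come from the same source sequence, yet contused array 3 was the lowest of the contused arrays on S63233_at (1026, with 1354 and 1460 on the others) and the highest on S63233_g_at (1034, with 704 and 718). The call of S63233_at was lost without contused array 3 or uninjured array 2 or 3 (adjusted p of up to 0.12 in limma). With no filter on dim probe sets the calls of both S63233_at and S63233_g_at were lost (adjusted p of 0.135 and 0.0669 in limma). Pgam2, the muscle mutase, overlapped between groups at 134, 113 and 109 against 132, 126 and 151 (log2 change -0.20, SE 0.15).

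Enolase follows, and its ubiquitous form Eno1, which glia use, did not pass on either probe set. Signals on X02610_g_at were 1569, 1442 and 1673 against 1648, 1806 and 1912 (log2 change -0.20, SE 0.12, adjusted p = 0.29 in limma). On X02610_at, from the same source sequence, the change had the other sign (0.08, SE 0.11). The neuronal enolase Eno2 was not found on a singly named probe set and is not analysed here. Eno3, the muscle enolase, stayed at 1.34 to 12.1 on the 6 arrays and Pklr at 11 to 20.2, both below the floor everywhere, so neither was tested. Pkm, which encodes the pyruvate kinase of brain and muscle, read 2005, 1976 and 1665 against 1999, 2330 and 2315, with contused array 1 just above the lowest uninjured value (log2 change -0.24, SE 0.12, adjusted p = 0.221 in limma).

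Ldhb, the heart-type lactate dehydrogenase subunit that neurons make, had both probe sets lower on all contused arrays. U07181_g_at passed, with 1604, 1395 and 1700 against 1926, 2048 and 2176 (log2 change -0.39, SE 0.12, adjusted p = 0.0444 in limma). This call was lost in 8 of 15 alternatives, among them leaving out contused array 1 or 2 or any uninjured array (up to 0.185). The brighter U07181_at had a log2 change of -0.28 (SE 0.11, adjusted p = 0.118 in limma). Ldha and Tpi1 appear only on probe sets that name several genes, and no value is given for them.

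**Figure D2:**
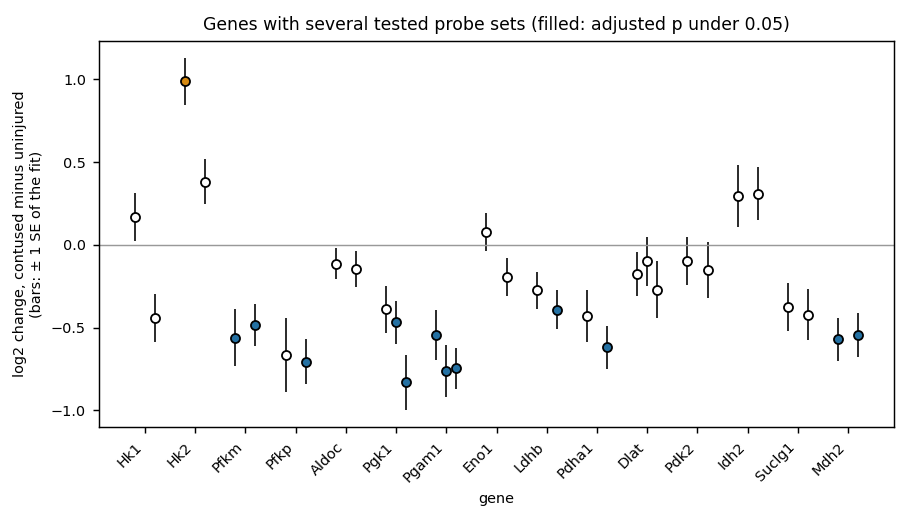
Log2 change (contused minus uninjured) with 1 SE of the limma fit for the 15 member genes with several tested probe sets; filled points have an adjusted p under 0.05, orange for a rise and blue for falls. Pgam1, Pfkm and Mdh2 fell on every probe set shown, whereas the probe sets of Hk1 and Eno1 lie on both sides of 0.

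The pyruvate dehydrogenase complex turns pyruvate into acetyl-CoA. Both subunits of its first enzyme fell. Pdha1, the catalytic alpha subunit, read 465, 511 and 533 against 711, 846 and 763 on rc_AA799598_at (log2 change -0.62, SE 0.13, adjusted p = 0.00824 in limma), a 1.54-fold fall with groups far apart that held in all 15 alternatives. On Z12158cds_at its log2 change was -0.43 (SE 0.16, adjusted p = 0.0888 in limma). Pdhb, the beta subunit, fell 1.41-fold, from 325, 383 and 368 to 241, 258 and 261 (log2 change -0.50, SE 0.14, adjusted p = 0.0282 in limma). Without contused array 1 or 2 or uninjured array 2 or 3 it did not pass (up to 0.114). Its other probe set was not above the floor on any array.

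Dlat, the acetyl-transferring core of the complex, had 3 probe sets with log2 changes of -0.27 to -0.10, none past the threshold. The kinases that switch the complex off were dim or overlapped between groups. Pdk1, a target of hypoxia signalling, read 63.4, 74.8 and 72.5 against 52.3, 59.4 and 53.2, so it was above the floor on all contused and no uninjured arrays (log2 change 0.18 with uninjured values set to the floor, SE 0.11, adjusted p = 0.287 in limma). Pdk4, the starvation-induced form of heart and muscle, read 74.3, 75.2 and 57.1 against 63.2, 49 and 58.2. Pdk2 gave 415, 417 and 347 against 357, 532 and 434 on its brighter probe set (log2 change -0.15, SE 0.17).

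In the TCA cycle and beside it, 3 of 8 tested genes fell and 0 rose, with a median log2 change of -0.41, where 9.91% of all genes fell and 7.03% rose. Mdh2, the mitochondrial malate dehydrogenase, fell on both probe sets, on the brighter from 975, 1223 and 1257 to 780, 808 and 767 (log2 change -0.54, SE 0.13, adjusted p = 0.0169 in limma). Mdh1, its cytosolic partner in the malate-aspartate shuttle, fell 1.44-fold, from 1517, 1698 and 1660 to 1033, 1204 and 1162 (log2 change -0.52, SE 0.12, adjusted p = 0.0115 in limma). For both genes the groups were clearly apart. The Mdh1 call and the calls of both Mdh2 probe sets were lost without uninjured array 3 (adjusted p of 0.0629 for Mdh1 and up to 0.0945 for Mdh2). That of the brighter Mdh2 probe set was also lost without uninjured array 2 and with no filter on dim probe sets.

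Idh3g encodes the gamma subunit of the NAD-dependent isocitrate dehydrogenase, the form that drives the cycle. It fell 1.48-fold, from 549, 498 and 500 to 332, 316 and 399 (log2 change -0.57, SE 0.14, adjusted p = 0.0181 in limma). The call was lost without contused array 1 or 2 or uninjured array 1 or 3 (up to 0.0839). Idh2, the mitochondrial NADP-dependent enzyme, had higher means on both probe sets after contusion, with overlapping groups: 435, 483 and 391 against 303, 424 and 337 on the brighter (log2 change 0.31, SE 0.16, adjusted p = 0.231 in limma). Idh1, the cytosolic NADP-dependent form, read 314, 370 and 376 against 375, 524 and 400 on its tested probe set (log2 change -0.28, SE 0.16). Its other probe set, rc_AA944025_at, was not above the floor on any array and was not tested. There every contused array was higher, at 48.9, 50.6 and 54 against 37.3, 37 and 35.7.

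Citrate synthase, Cs, which opens the cycle, read 342, 304 and 339 against 390, 471 and 480. Its groups were apart, and the log2 change of -0.44 (SE 0.14) lay just outside the threshold (adjusted p = 0.0553 in limma). Without uninjured array 1 it passed (0.0497). Suclg1, a subunit of succinyl-CoA ligase, was lower on every contused array on both probe sets, with log2 changes of -0.38 (SE 0.15, adjusted p = 0.112 in limma) and -0.42 (SE 0.15, 0.0884). Without contused array 3 the brighter passed (0.0257). Aco1, a cytosolic aconitase that doubles as the iron sensor IRP1, read 215, 223 and 224 against 196, 206 and 185, higher on every contused array by a log2 change of 0.17 (SE 0.13, adjusted p = 0.429 in limma).

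The question of neuronal, glial and muscle isoforms was put to pairs that catalyse the same kind of reaction. For each array the log2 signal of one isoform was taken minus that of the other, and the groups were compared. The level of such a difference has no meaning, since probe sets differ in brightness. A shift between groups shows unequal change of the 2 probe sets used, which need not hold for the genes. Probe sets of 1 gene also changed unequally, with log2 changes of -0.44 and 0.17 for Hk1 and of -0.83 to -0.39 for Pgk1. Of the 15 member genes with several tested probe sets, 2 had probe sets that differed in sign. Of 13 pairs, 7 could be measured, and the exact permutation p over 3 against 3 arrays cannot be below 0.1, or 0.175 after Benjamini-Hochberg adjustment over the 7 pairs. No pair can therefore pass, and the sizes with their spread are the result.

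The groups stood apart in 3 pairs, with and without the floor under dim signals, each with an exact permutation p of 0.1 (0.175 adjusted). The share of other gene pairs that stand apart was not taken, so this count has no background beside it. Among all single probe sets tested, every contused array lay below every uninjured array in 18.2% and above in 16.6%. Hk1 minus Hk2 shifted furthest, from 1.6, 1.82 and 1.66 on the uninjured to 0.68, 0.85 and 1.07 on the contused arrays, a difference of -0.82 (SE 0.13). This pair used the Hk1 probe set that was lower after contusion. Averaging all probe sets of each gene gave -0.82 as well, but from other parts. Hk1 then changed by -0.14 (SE 0.11) and Hk2, with its dim probe set included, by 0.68 (SE 0.12). The match therefore does not speak to the choice of the Hk1 probe set. No difference was taken with the other Hk1 probe set, whose log2 change was 0.17, beside 0.38 for the Hk2 probe set used. Aldoc minus Aldoa moved the other way, from 0.98, 0.97 and 1.0 to 1.42, 1.27 and 1.74, a difference of 0.49 (SE 0.14). On the probe sets used, the astrocyte form relative to the ubiquitous aldolase was thus higher on all 3 contused arrays.

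Pfkp minus Pfkl shifted by -0.51 (SE 0.11), from 1.79, 1.73 and 1.93 to 1.12, 1.42 and 1.37. Pdk2 minus Pdk4 gave no measured separation, since Pdk4 was not above the floor on 3 arrays. With the floor its shift was -0.33 (SE 0.18) and the groups just missed each other (exact permutation p = 0.1), and with the deposited signals it was -0.43 (SE 0.28) and they overlapped (exact p = 0.2). It was -0.21 under quantile normalization (exact p = 0.4) and -0.17 without uninjured array 2. In the remaining 3 pairs the groups overlapped. These were Pgam1 minus Pgam2 (-0.34, SE 0.17, exact permutation p = 0.3), Pfkm minus Pfkl (-0.29, SE 0.15, exact p = 0.2) and Mdh1 minus Mdh2 (0.02, SE 0.09, exact p = 0.9). The cytosolic and mitochondrial malate dehydrogenases therefore differed in their change by less than the spread between arrays.

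**Figure D3:**
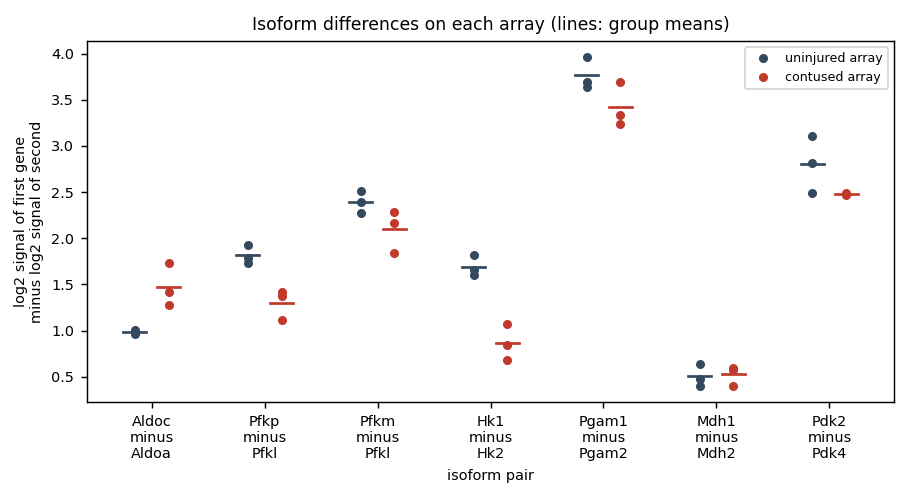
For each of 7 isoform pairs, the log2 signal of the first gene minus that of the second on each array (points), with group means (lines) and signals under the floor set to it; dark is uninjured, red contused. The contused arrays lie below the uninjured ones for Hk1 minus Hk2 and Pfkp minus Pfkl and above them for Aldoc minus Aldoa, and the groups overlap for Mdh1 minus Mdh2.

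Of the 5 muscle or heart type isoforms (Hk2, Pfkm, Pgam2, Eno3 and Pdk4), 4 were tested, with 1 lower (Pfkm) and 0 higher at the gene level, and Eno3 was below the floor. Of 15 tested skeletal muscle markers 0 rose and 2 fell (13.3%, near the 9.91% of all genes). These were the fast myosin gene Myh1 (200 ± 40.9 against 521 ± 70.9, SD, n = 3; adjusted p = 0.000466 in limma) and the troponin gene Tnnc2, which was above the floor on the uninjured arrays alone. Of the 19 muscle markers on the array, Myh2, Myl1 and Tnni1 were not above the floor on any array, and the sums were 2672 to 2926 on contused and 2489 to 3477 on uninjured arrays. Of the 4 tested genes listed as neuronal or brain type (Aldoc, Hk1, Pfkp and Pgam1), 2 fell (Pfkp and Pgam1) and 0 rose, beside the 9.91% and 7.03% of all genes. Neither of the fallen genes is particular to brain, since Pfkp is the platelet type and Pgam1 the mutase of brain and most tissues. Aldoc did not pass, and the probe sets of Hk1 disagreed in sign. Of red cell markers, the other source of Pklr, 0 of 4 passed the threshold in limma, and their sums overlapped (3374 to 5025 against 4694 to 5988).

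Genes around the members were taken from 5 further lists, to be read against the 9.91% of all genes that fell and the 7.03% that rose. Of 12 other glycolysis and TCA enzymes or regulators, 3 fell and 0 rose (median log2 change -0.10). Pc, the pyruvate carboxylase that astrocytes use to refill the cycle, fell from 327 ± 15.3 to 211 ± 11.3 (SD, n = 3; adjusted p = 0.00821 in limma), a call that held in all 15 alternatives. Mpc1, a subunit of the carrier that brings pyruvate into mitochondria, had a log2 change of -0.50 (adjusted p = 0.0417 in limma), and Sdha, the flavoprotein of succinate dehydrogenase, -0.51 (0.0476). Both lost their calls without contused array 1 or 2 or any uninjured array. They also lost them under quantile normalization, with no filter on dim probe sets and without the intensity trend. The genes for the bifunctional regulators Pfkfb1 to Pfkfb4 were all tested, and none passed.

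Of 10 genes for NADH shuttles and for exchange between the cycle and the cytosol, 5 fell and 0 rose (median log2 change -0.33). Got1, the cytosolic aspartate aminotransferase of the malate-aspartate shuttle, fell 2.29-fold, from 826 ± 121 to 358 ± 10.4 (SD, n = 3; adjusted p = 0.000335 in limma). Its mitochondrial partner Got2 fell 1.4-fold (adjusted p = 0.0224 in limma). That call was lost under quantile normalization and without contused array 1 or 2 or uninjured array 2 or 3. Slc25a1, which exports citrate, fell 1.74-fold and Acly, which cuts citrate to acetyl-CoA for lipid synthesis, 1.7-fold. Me1, which makes NADPH from malate, fell 1.44-fold, a call lost without contused array 2 or uninjured array 3.

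Among glucose and lactate transporters 1 of 9 was higher (11.1%, near the 7.03% of all genes) and 0 were lower, with a median log2 change of 0.05. The single call was Slc16a1, the monocarboxylate transporter MCT1 through which oligodendrocytes and other glia pass lactate, which rose from 527 ± 82.6 to 757 ± 74.7 (SD, n = 3; log2 change 0.53, adjusted p = 0.033 in limma). Its call was lost with no filter on dim probe sets and without contused array 1 or 2 or uninjured array 1 or 3 (up to 0.147). Slc2a1, the glucose transporter of the blood-brain barrier and astrocytes, had a log2 change of -0.41 (adjusted p = 0.066 in limma). Endothelium markers summed to less on every contused array, as given above, and their part in that value was not tested. The neuronal Slc2a3 had a log2 change of 0.10. Of 7 genes of glycogen and gluconeogenesis, Pygb, the brain glycogen phosphorylase, fell from 1583 ± 127 to 1139 ± 17.9 (adjusted p = 0.0158 in limma); it did not pass without uninjured array 2 or 3. The pentose phosphate genes Taldo1 (log2 change 0.19) and Tkt (-0.09) did not pass.

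**Figure D4:**
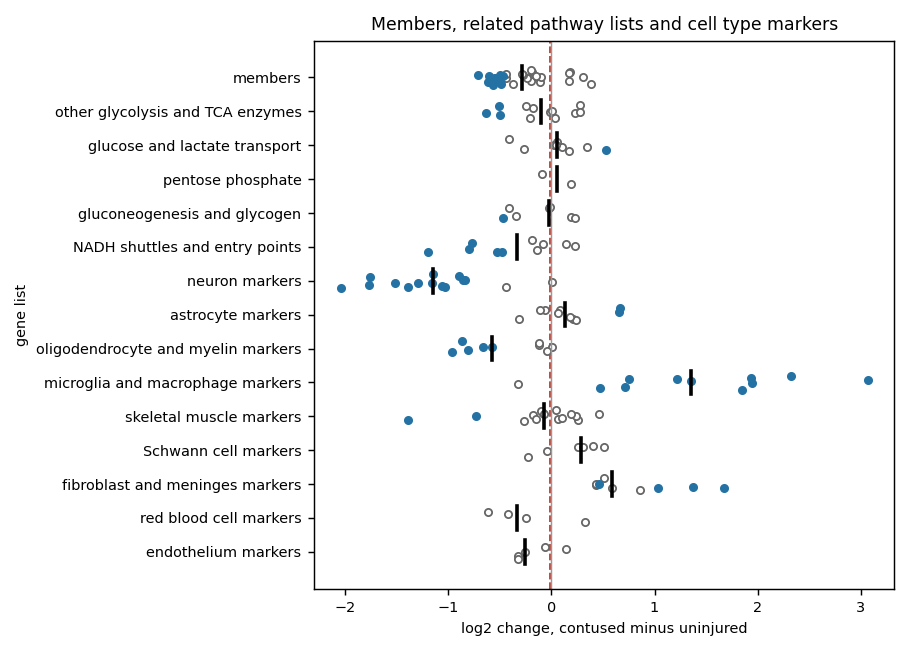
Log2 change (contused minus uninjured) of each tested gene in the members, the 5 related pathway lists and the 9 cell type marker lists; filled points have an adjusted p under 0.05, short vertical bars are list medians and the dashed line is the median of all 3954 genes (-0.02). The members have 10 filled points, all below 0, the neuron markers 13 below 0 and the microglia and macrophage markers 10 above 0.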

How the data were processed

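The authors deposited 1 intensity per probe set and array, linear by its values; for probe summary, background subtraction and array scaling the method was not given in the sources used here. Trimmed means (2% at each end) spread by 8.62%, under the 10% limit set for rescaling, so no rescaling was applied; 0 columns belonged to other samples. Intensities under the pooled 25th percentile (61.6) were set to it and log2 transformed, and the 6698 of 8740 non-control probe sets above it on at least 3 of 6 arrays were fitted with limma 3.58.1 in R 4.3.3 (eBayes with intensity trend, two-sided, Benjamini-Hochberg over all of them). An array has no count behind it; 3 arrays per group limit the precision. Log2 changes understate differences at the floor.

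Gene names came from the array annotation (6994 identifiers matched GRCr8, used for names and promoters). Eno2, Gpi, Idh3a, Idh3b, Ogdh and Fh had no singly named probe set among those used. For gene counts, the tested probe set with the highest mean over the arrays stood for its gene. SDs are over 3 arrays; SEs of control spots and isoform pairs come from the spread within groups. Values on all arrays were given for members called, paired or with disagreeing probe sets; from each list the called genes of smallest p, up to 3 each way, or else the 2 brightest, with others (Slc2a1, Slc2a3, Got2, Me1, Pfkfb1 to Pfkfb4) chosen after their values were seen. Members and lists were chosen with earlier results of these data known. The fit was tested on simulated data. Python 3.11.15, pandas 2.3.3 and matplotlib 3.10.9 were used.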

Additional observations from a re-analysis of the deposited data

How the results depend on the processing

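Counts of calls depended most on the filter and on single arrays. Without the filter on dim probe sets, 662 of all probe sets, 7 lower member probe sets and 5 lower member genes passed in limma, where 1166, 16 and 10 did in the analysis above. Leaving out 1 array gave 656 to 1236 calls in all, 5 to 19 lower member probe sets and 2 to 11 lower member genes, with the fewest without uninjured array 3. Over all genes, 240 of 4736 were lower without the filter, 222 of 3905 without uninjured array 3 and 465 of 3882 without contused array 3. At a floor of the 50th percentile 0 member probe sets were higher, since that of Hk2 was too dim to be tested, and at the 10th percentile 2 were. Averaging the probe sets of a gene gave 12 lower member genes and 1 higher, Hk2. The median log2 change of the member genes was -0.38 with the floor at the 50th percentile and with signal above the floor required on all 6 arrays, where fewer genes were tested, and -0.38 to -0.26 with 1 array left out. Quantile normalization gave 15 lower member probe sets, and scaling to a common median 16.

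No called member probe set changed sign in any of the alternatives, and the calls of Hk2 (D26393exon_s_at), Pfkp (L25387_g_at), Pdha1 (rc_AA799598_at) and Pgam1 (rc_AI169417_s_at) held wherever they were tested. Among values near 0, Mdh1 minus Mdh2 turned to -0.063 under quantile normalization and ran from -0.029 to 0.0896 with 1 array left out, where it was -0.0015 without contused array 2 and -0.014 without contused array 3. Dlat (D10655_at) ran from -0.157 to 0.0029 (without uninjured array 2), Pdk2 (U10357_at) from -0.193 to 0.0058 (without contused array 2), and the middle Hk1 control spot from -0.057 (without uninjured array 1) to 0.0768, with -0.025 without contused array 2; the cause was not tested. Same-numbered arrays correlated at 0.04, 0.22 and -0.24 in their deviations from the group means, and differently numbered ones at -0.27 to 0.27. With 3 arrays per group these deviations are tied to each other, so the check shows no pairing by number but cannot exclude one. With the replicate number as a block, 17 member probe sets were lower and 1 higher, and the 10 lower member genes were as many as without it. Alternatives for the pathway lists and the isoform pairs without a floor were chosen after seeing the data.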
